A study of Mus musculus with 15 samples.

Results

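The 10 genes described here handle zinc and iron in mouse pancreatic ductal organoids that were given doxycycline. They were listed as genes of metal responses, because doxycycline binds metal ions, by a rule that uses no measured value, although earlier results of these data were known when the list was made. They are the metallothioneins Mt1 and Mt2, the zinc sensor Mtf1, the zinc transporters Slc30a1, Slc39a4 and Slc39a10, and the iron genes Tfrc, Fth1, Ftl1 and Slc40a1. They are 10 of 34547 mouse genes with estimated counts in these libraries, and 6 of them serve zinc and 4 iron. All 10 passed the filter on low counts. Gene coordinates below are those of GENCODE M21 on GRCm38.

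The organoids are epithelial cultures of normal pancreatic duct grown in Matrigel. CA19-9 inducible lines A217, A220 and A225 carried every allele needed to make CA19-9, a glycan that mice do not make, once doxycycline is added. Genetic negative lines A218 and A223 lacked 1 of those alleles, and the sources do not say which one. Doxycycline was given at 1 µg/ml for 0, 4 or 24 h, and every line gave 1 library at each time, 15 in all. Both genotypes received doxycycline, all cultures had their medium renewed 24 h before a common harvest, and the 24 h cultures therefore met doxycycline in fresh medium. The labels do not say whether lines came from separate animals, so p-values measure the spread between lines. Without a replicate block for the line this is the spread of levels, and libraries of 1 line are treated as independent. With the block it is the spread of the changes within lines.

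Library totals lay between 47915632 and 59411540 estimated counts. EGFP, an added sequence that follows the induced alleles, had 259 to 340 CPM (counts scaled to the library total) at 4 h and 270 to 385 CPM at 24 h in inducible lines, against at most 0.345 CPM in negative lines at any time. It had 0.341 to 0.737 CPM in inducible lines at 0 h, so it set treated inducible libraries apart from all others and checked no other label. Duct markers summed to between 9599.05 and 16082.29 TPM, a scale that also corrects for transcript length, with 9 of 10 at 1 TPM or more in every library. Markers of other cell types summed to far less. Acinar markers summed to 2.2 to 3.22 TPM, with Cpa1, Ptf1a and Amy2b at 0. Endocrine markers summed to 0.02 to 0.27 TPM, with Ins1, Ins2, Gcg and Ppy at 0. The sums were 0.06 to 1.7 TPM for fibroblasts, 1.8 to 3.03 TPM for immune cells (with Adgre1 at 0) and 3.11 to 5.67 TPM for endothelial cells. In the acinar, immune and endothelial lists 1 marker each had 1 TPM or more in every library. All endocrine and fibroblast markers were below 1 TPM in every library.

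Metallothioneins are small cysteine-rich proteins that bind zinc and copper. MTF1 is a zinc finger factor that, when cytosolic zinc is high, binds metal response elements and switches on Mt1, Mt2 and Slc30a1, the exporter that moves zinc out of the cell; in mouse cells it has also been described as holding down the importer Slc39a10. Iron is sensed at the level of RNA. When iron is scarce, the iron regulatory proteins bind stem loops called iron responsive elements, which protects the Tfrc transcript from decay when the loops lie in the 3′ UTR and blocks translation of ferritin and ferroportin when they lie in the 5′ UTR. Tetracyclines such as doxycycline bind divalent and trivalent metal ions.

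The promoters of the MTF1 targets are shown to mark letters that match the metal response element, which MTF1 binds. The metal response element core was searched as TGCACNC or TGCGCNC on both strands in RefSeq promoter windows on GRCm38.p6, which run from 250 bases before the start site to 50 after it. Of the 10 genes, 8 had a window, and Slc39a4 and Slc40a1 did not. The windows of Mt1 (chr8:94178839-94179138, plus strand), Mt2 (chr8:94172368-94172667, plus strand) and Slc30a1 (chr1:191906531-191906830, plus strand) follow, with each core in capitals, and a core on the opposite strand is printed as the plus strand reads.
Mt1: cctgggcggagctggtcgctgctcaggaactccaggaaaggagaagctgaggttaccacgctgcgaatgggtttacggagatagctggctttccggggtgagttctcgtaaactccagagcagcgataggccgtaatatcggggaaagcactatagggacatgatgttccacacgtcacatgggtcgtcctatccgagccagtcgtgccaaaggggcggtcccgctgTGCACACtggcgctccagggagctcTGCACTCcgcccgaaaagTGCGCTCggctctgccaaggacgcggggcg
Mt2: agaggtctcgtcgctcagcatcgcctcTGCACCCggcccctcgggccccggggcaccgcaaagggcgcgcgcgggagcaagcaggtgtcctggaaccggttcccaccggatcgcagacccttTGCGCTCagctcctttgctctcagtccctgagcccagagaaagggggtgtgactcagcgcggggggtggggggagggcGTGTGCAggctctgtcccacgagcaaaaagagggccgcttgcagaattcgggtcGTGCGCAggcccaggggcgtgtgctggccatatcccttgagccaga
Slc30a1: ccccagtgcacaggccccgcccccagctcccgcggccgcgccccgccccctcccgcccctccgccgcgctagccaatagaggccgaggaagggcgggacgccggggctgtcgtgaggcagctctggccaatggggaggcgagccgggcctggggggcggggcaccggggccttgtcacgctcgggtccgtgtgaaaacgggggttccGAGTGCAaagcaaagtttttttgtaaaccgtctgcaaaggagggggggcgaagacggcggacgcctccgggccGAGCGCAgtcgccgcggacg

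Mt1 held 3 cores, all on the strand of the gene, with first bases at -23, 2 and 20 from the start site. Mt2 held 4, of which 2 lay on each strand, starting at -223, -128, -50 and 4 from the RefSeq start site. GENCODE M21 begins Mt2 further downstream, at 94172664, near the window's end at 94172667. By that annotation all 4 cores of Mt2 lie ahead of the gene. Slc30a1 held 2, both on the opposite strand, starting at -43 and 30. Among 32851 such promoters, 25.7% held at least 1 core, 7.11% at least 2, 1.97% at least 3 and 0.517% at least 4. The windows of Mtf1, Slc39a10, Fth1 and Ftl1 held none, and 1 of the windows of Tfrc held 2 that overlap, as the same palindrome read on both strands. A match is a stretch of letters and not a measured binding site. Counts and positions hold for these windows only, which end 50 bases after the RefSeq start site, and cores beyond them were not searched. In the main transcript of Mt1 the coding sequence begins at base 230, so part of its 5′ UTR lay outside the window.

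The iron genes carry their element in the transcript. GENCODE M21 transcripts were searched for an unpaired C, 5 paired bases, the loop CAGTGN or CAGAGN whose last base is not G, and the 5 bases that pair back, allowing G-U pairs. A match was found in 482 of 21901 protein-coding genes (2.2%). Windows of 29 bases are printed with the loop in capitals, to show how the loops of the 3′ UTR of Tfrc compare with those of the 5′ UTR of both ferritins and of ferroportin.
Tfrc, loop 1: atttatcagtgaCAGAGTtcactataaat
Tfrc, loop 2: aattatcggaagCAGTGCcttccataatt
Tfrc, loop 3: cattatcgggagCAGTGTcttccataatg
Tfrc, loop 4: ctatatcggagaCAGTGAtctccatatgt
Tfrc, loop 5: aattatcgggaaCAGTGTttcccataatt
Fth1: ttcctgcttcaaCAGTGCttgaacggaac
Ftl1: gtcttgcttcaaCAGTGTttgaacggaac
Slc40a1: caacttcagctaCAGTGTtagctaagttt

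The 5 loops of Tfrc begin at bases 3268, 3327, 3706, 3771 and 3818 of a transcript of 4890 bases, all behind the coding sequence. The single loops of Fth1, Ftl1 and Slc40a1 begin at bases 99, 90 and 102, ahead of it. Loop 1 of Tfrc is the only one of the 8 with CAGAGT, and the other 7 read CAGTG and a last base of C, T or A. The other 6 genes held no match.

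**Figure D1:**
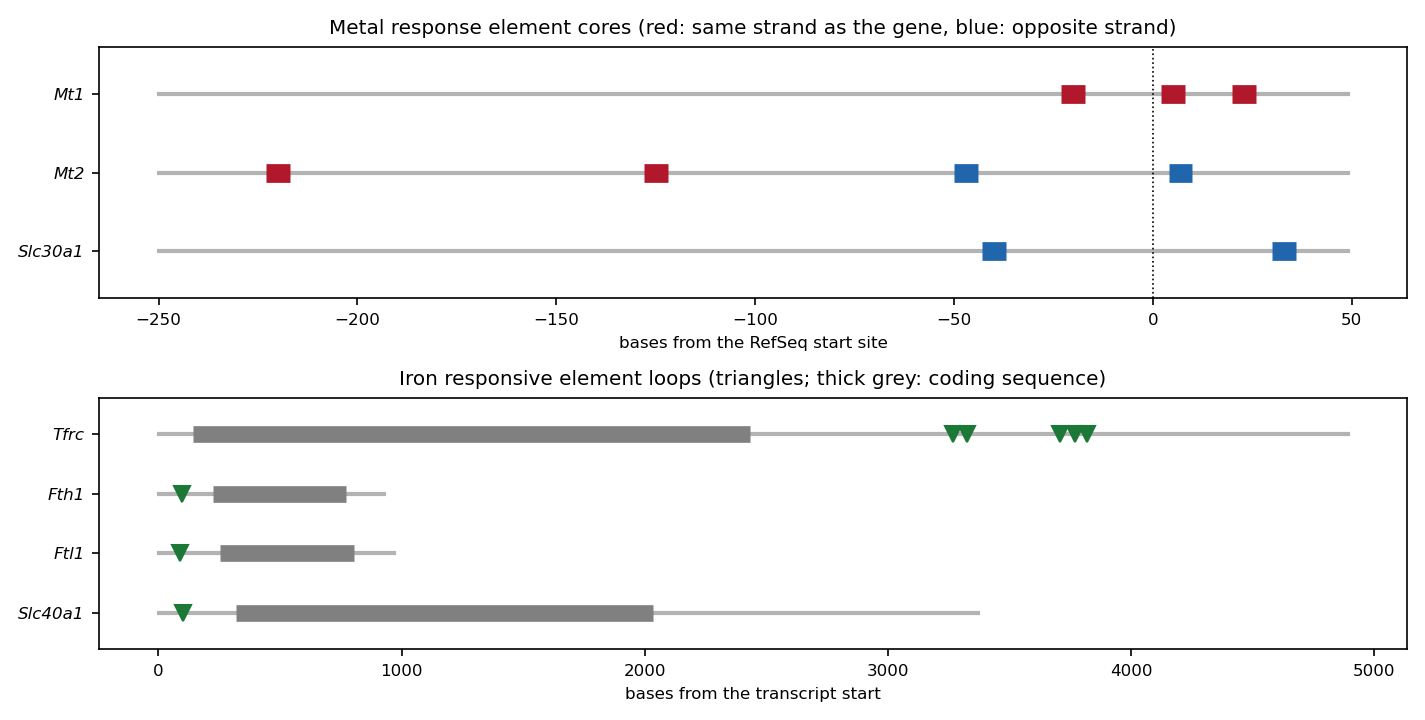
Positions of metal response element cores in promoter windows (top, bases from the RefSeq start site) and of iron responsive element loops in transcripts (bottom, bases from the transcript start). Mt1 has 3 cores, Mt2 4 and Slc30a1 2, and Tfrc carries its 5 loops behind the coding sequence while Fth1, Ftl1 and Slc40a1 each carry 1 ahead of it.

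Levels differed widely between the genes. On the TPM scale ferritin light chain Ftl1 averaged 5328 ± 297 TPM over the 15 libraries (SD) and ranked 7 of 34547 genes. Ferritin heavy chain Fth1 followed with 1119 ± 110 TPM, then Mt1 with 639 ± 206 TPM and Mt2 with 154 ± 81.7 TPM. The zinc importer Slc39a4 averaged 137 ± 8.27 TPM, the transferrin receptor Tfrc 57.1 ± 14 TPM, the importer Slc39a10 33.3 ± 7.27 TPM and ferroportin Slc40a1 20.9 ± 4.58 TPM. Mtf1 averaged 12.9 ± 1.81 TPM and Slc30a1 5.85 ± 1.26 TPM. Neighbours in this order whose ranges over libraries overlapped were Fth1 and Mt1, Mt2 and Slc39a4, Tfrc and Slc39a10, Slc39a10 and Slc40a1, and Slc40a1 and Mtf1; Mt2 lay above Slc39a4 in 6 of 15 libraries.

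After 24 h of doxycycline, 6 of the 10 genes passed the test against 0 h over the 5 lines, with 5 higher and 1 lower, against 18.8% of all features tested (10.9% higher and 7.98% lower), and with a replicate block for the line 7 of 10 passed, against 36.5%. Mt1, Mt2, Slc30a1, Mtf1 and Slc39a10 were higher and Tfrc was lower. The median log2 change was 0.18 over the 10 genes and 0.001 over all 16462 features. After 4 h, 1 of 10 passed, against 0.917% of features, and it was Slc30a1, which was lower. With that block, which compares each line with itself, 6 of 10 passed at 4 h, all of them lower, against 8.87% of features (4.96% lower), and the median log2 change was -0.11 over the genes and 0.001 over all features. By limma-voom with a random block 4 of 10 passed at 4 h (6.7% of features) and by DESeq2 3 of 10 (4.45%), all of them lower. Where no other test is named, counts are from edgeR's quasi-likelihood test with Benjamini-Hochberg adjustment over all 16462 features. The threshold on the adjusted p was 0.05 in every test. DESeq2 left some features without an adjusted p. Its shares against 0 h are therefore of 12309 features at 4 h and 13900 at 24 h. The comparisons of 4 h and of 24 h share the 0 h libraries. In bulk libraries, fewer cells of a type and less RNA per cell cannot be told apart.

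**Figure D2:**
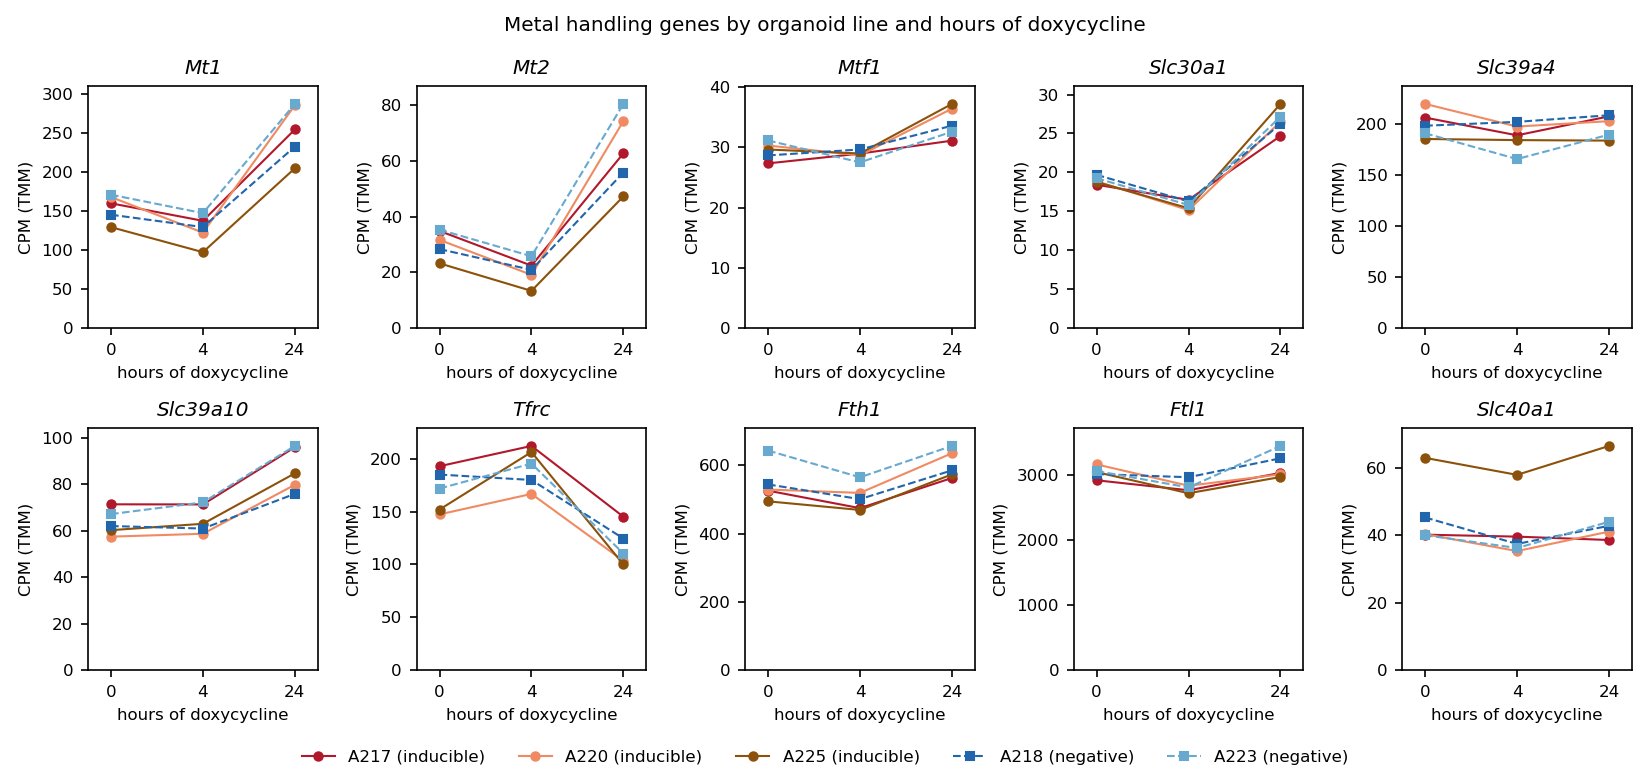
CPM (TMM scaling) of the 10 genes in each line at 0, 4 and 24 h of doxycycline, with circles and full lines for inducible lines and squares and dashed lines for negative lines. Mt1, Mt2 and Slc30a1 dip at 4 h and stand above their 0 h values at 24 h in all 5 lines, and Tfrc stands below its 0 h value at 24 h in all 5.

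The metallothioneins had the largest log2 changes of the 10 genes at both times. Mt2 (chr8:94172664-94173568, plus strand), the neighbour of Mt1, had 34.87, 31.67 and 23.24 CPM at 0 h, 22.42, 19.11 and 13.35 CPM at 4 h and 62.73, 74.31 and 47.26 CPM at 24 h in inducible lines A217, A220 and A225. In negative lines A218 and A223 it had 28.35 and 35.33 CPM at 0 h, 20.9 and 25.79 CPM at 4 h and 55.84 and 80.46 CPM at 24 h. Every 24 h library was above every 0 h library, each line was lower at 4 h than at 0 h, and the genotypes overlapped at each time. Over 5 lines Mt2 averaged 64.1 ± 13.5 CPM at 24 h against 30.7 ± 5.02 CPM at 0 h (SD, n = 5 each), a log2 change of 1.06 ± 0.17 (SE) or 2.09-fold (edgeR adjusted p = 0.00174). At 4 h it averaged 20.3 ± 4.6 CPM, and its log2 change of -0.605 ± 0.174 against 0 h missed the threshold without the block (edgeR adjusted p = 0.14). With the block it was -0.61 ± 0.06 (edgeR adjusted p = 4.71e-05), with single lines between -0.8 and -0.44.

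Mt1 (chr8:94179082-94180327, plus strand), the more abundant metallothionein, had 159.6, 167.6 and 129.1 CPM at 0 h, 137.2, 122.1 and 97.11 CPM at 4 h and 254, 285 and 204.4 CPM at 24 h in inducible lines, in the same order of lines. It had 145 and 170.6 CPM at 0 h, 129.2 and 147 CPM at 4 h and 232.1 and 286.7 CPM at 24 h in negative lines. Again all 24 h libraries stood above all 0 h libraries and the genotypes overlapped. The log2 change at 24 h was 0.71 ± 0.12 or 1.64-fold (edgeR adjusted p = 0.00182), and the 5 lines lay close together, between 0.663 and 0.766. At 4 h it was -0.29 ± 0.12 without the block (edgeR adjusted p = 0.327) and -0.29 ± 0.04 with it (edgeR adjusted p = 0.000669). The lower 4 h values make the step from 4 to 24 h the largest, at 3.18-fold for Mt2 (log2 1.67 ± 0.18, edgeR adjusted p = 0.000162) and 2-fold for Mt1 (log2 1 ± 0.12, edgeR adjusted p = 0.000297). Both share the 0, 4 and 24 h libraries with the comparisons above.

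Mt2 had the larger log2 change of the pair at both times, and their ratio differed between times. On the TPM scale Mt1 exceeded Mt2 by a median of 4.53-fold at 0 h (4.09 to 4.94 over the 5 libraries), 5.56-fold at 4 h (5.11 to 6.51) and 3.63-fold at 24 h (3.17 to 3.87). The ranges of the 3 times did not overlap. Line A225 had the lowest and line A223 the highest Mt1 and Mt2 at every time. The other listed metallothioneins, Mt3 and Mt4, did not pass the filter on low counts.

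Slc30a1 (chr1:191906767-191913247, plus strand), which exports zinc across the plasma membrane, had the same shape in a narrower band. It had 18.41, 18.86 and 18.76 CPM at 0 h, 16.47, 15.15 and 15.39 CPM at 4 h and 24.67, 26.53 and 28.79 CPM at 24 h in inducible lines. Lines A218 and A223, the negative ones, had 19.68 and 19.25 CPM at 0 h, 16.27 and 15.81 CPM at 4 h and 26.23 and 27.15 CPM at 24 h. No 4 h library reached the lowest 0 h library, and no 24 h library fell to the highest. It rose 1.4-fold at 24 h (log2 0.49 ± 0.05, edgeR adjusted p = 9.91e-05). It fell at 4 h by 0.26 ± 0.05 on the log2 scale (edgeR adjusted p = 0.035, and 0.00453 with the block). The 4 h call was lost when any 1 line was left out (A217, A218, A220, A223 or A225, edgeR adjusted p between 0.0595 and 0.311), with the change still between -0.292 and -0.255. Slc30a1 rested on the fewest estimated counts of the 10 genes, 746 to 1423 per library.

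Mtf1 (chr4:124802104-124849800, plus strand) had the smallest change among the genes that passed at 24 h. It had 27.32, 30.28 and 29.62 CPM at 0 h, 28.94, 28.65 and 28.96 CPM at 4 h and 31.09, 36.39 and 37.18 CPM at 24 h in inducible lines. The negative lines had 28.64 and 31.12 CPM at 0 h, 29.63 and 27.49 CPM at 4 h and 33.57 and 32.57 CPM at 24 h. The 0 and 24 h libraries overlapped only by line A217 at 24 h lying just under line A223 at 0 h. The change at 24 h was 1.16-fold (log2 0.22 ± 0.06, edgeR adjusted p = 0.0227), higher in 5 of 5 lines. The call was lost without A218, A220, A223 or A225 (edgeR adjusted p = 0.112, 0.107, 0.0685 and 0.105). At 4 h the log2 change was -0.03 ± 0.06 (edgeR adjusted p = 0.927). The main transcript held 74.45 to 91.8% of the counts of Mtf1, the lowest share among the 10 genes.

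**Figure D3:**
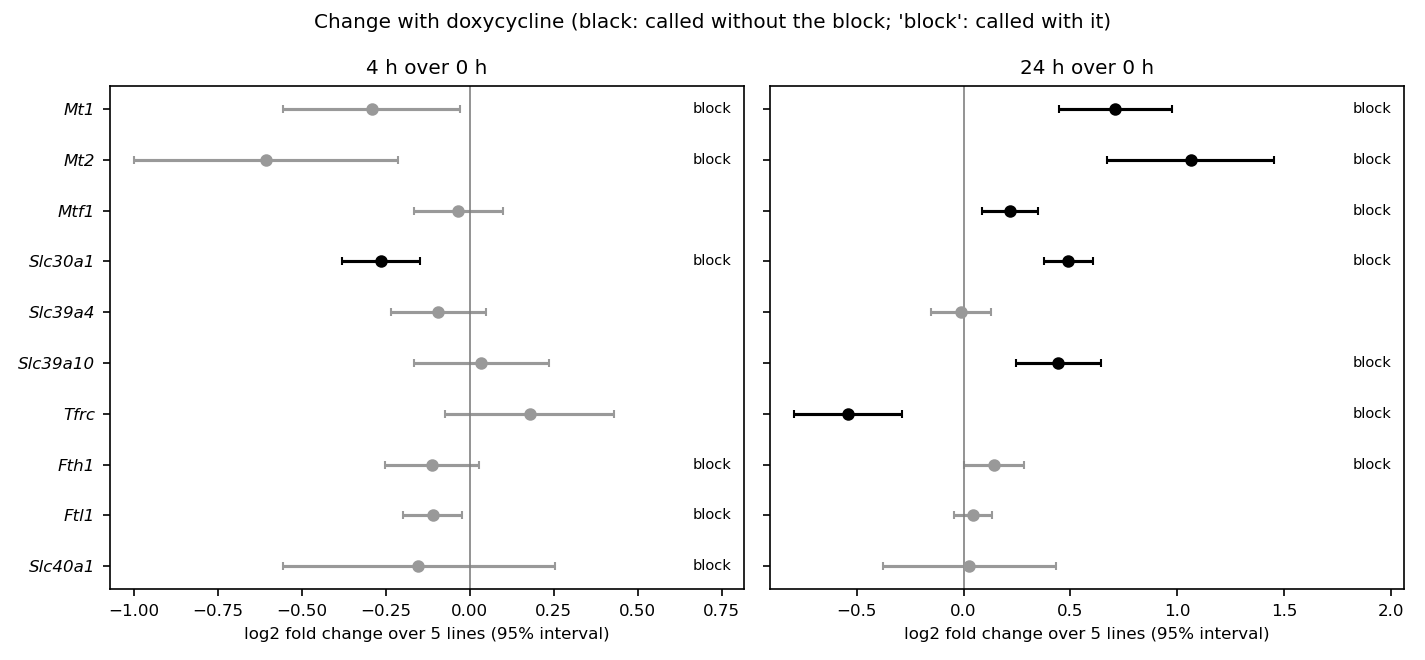
Log2 fold changes over the 5 lines with 95% intervals, for 4 h over 0 h (left) and 24 h over 0 h (right); black points passed the test without the replicate block, and the word block marks genes that passed with it. At 4 h Slc30a1 alone is black while 6 genes carry the mark, and at 24 h 6 genes are black and 7 carry it.

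The zinc importers parted. Slc39a10 (chr1:46807544-46892852, minus strand), a plasma membrane importer, had 71.41, 57.48 and 60.28 CPM at 0 h, 71.36, 58.72 and 63.02 CPM at 4 h and 96, 79.84 and 84.75 CPM at 24 h in inducible lines. Negative lines gave 62.05 and 67.2 CPM at 0 h, 60.97 and 72.25 CPM at 4 h and 75.92 and 96.56 CPM at 24 h. All 24 h libraries lay above all 0 h libraries, a 1.36-fold change (log2 0.44 ± 0.09, edgeR adjusted p = 0.00536), with no change that passed at 4 h (log2 0.04 ± 0.09, edgeR adjusted p = 0.956). Each of the 5 lines was higher at 24 h, by 0.291 to 0.523 on the log2 scale.

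Slc39a4 (chr15:76612383-76617384, minus strand), the importer of dietary zinc in the gut, had 206.6, 220 and 185.6 CPM at 0 h, 189.2, 197.8 and 184.5 CPM at 4 h and 207.8, 203.1 and 184 CPM at 24 h in inducible lines. Values in the negative lines were 198.6 and 191.2 CPM at 0 h, 202.4 and 165.9 CPM at 4 h and 208.9 and 189.9 CPM at 24 h. All 3 times and both genotypes overlapped. Its log2 change at 24 h was -0.01 ± 0.06 (95% interval without the block -0.153 to 0.13, edgeR adjusted p = 0.925). The changes of the 5 lines lay between -0.116 and 0.072.

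Among the iron genes, Tfrc (chr16:32608920-32632794, plus strand), which takes up iron bound to transferrin, was the 1 gene of the 10 that passed the test as lower at 24 h. It had 192.9, 147.3 and 151.9 CPM at 0 h, 212.1, 166.7 and 206.3 CPM at 4 h and 145.1, 103.4 and 99.94 CPM at 24 h in inducible lines. The negative pair had 185 and 171.8 CPM at 0 h, 179.9 and 195.4 CPM at 4 h and 124.5 and 110.3 CPM at 24 h. No 24 h library reached the lowest 0 h library. Tfrc averaged 117 ± 18.5 CPM at 24 h against 170 ± 20 CPM at 0 h, a fold of 0.687 (log2 -0.54 ± 0.11, edgeR adjusted p = 0.00639), and the 5 lines changed by -0.64 to -0.41. The call was lost without A218 (edgeR adjusted p = 0.054) or A223 (0.0613) and held with the block (1.13e-05). At 4 h Tfrc was higher in 4 of 5 lines, by 0.18 ± 0.11 on the log2 scale over the 5 lines (edgeR adjusted p = 0.602, and 0.0654 with the block). Between 4 and 24 h it fell to a fold of 0.607 (log2 -0.72 ± 0.11, edgeR adjusted p = 0.00128).

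Ferritin stores iron in a shell of heavy and light chains. Fth1 (chr19:9980598-9985098, plus strand), the heavy chain that oxidises iron, had 526, 529.3 and 494.7 CPM at 0 h, 474.7, 519.4 and 469.4 CPM at 4 h and 563.1, 635.7 and 573.7 CPM at 24 h in inducible lines. Among negative lines the values were 544.3 and 643.5 CPM at 0 h, 501.1 and 565.2 CPM at 4 h and 585.5 and 657.1 CPM at 24 h. The times overlapped and line A223 stood highest at each, but each line was higher at 24 h than at 0 h and lower at 4 h. The log2 change at 24 h was 0.14 ± 0.06 without the block (edgeR adjusted p = 0.126) and 0.14 ± 0.03 with it (edgeR adjusted p = 0.00138). The 4 h change, -0.11 ± 0.06, missed the threshold (edgeR adjusted p = 0.52) and passed with the block (0.0254). From 4 to 24 h it rose by 0.25 ± 0.06 on the log2 scale (edgeR adjusted p = 0.0132, and 0.0556 without A225).

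Ftl1 (chr7:45457944-45459884, minus strand), the light chain, had 2912, 3156 and 3038 CPM at 0 h, 2759, 2828 and 2713 CPM at 4 h and 3025, 3003 and 2962 CPM at 24 h in inducible lines. Negative lines A218 and A223 stood at 3007 and 3054 CPM at 0 h, 2959 and 2802 CPM at 4 h and 3249 and 3439 CPM at 24 h. The 0 h libraries overlapped those of 4 h and of 24 h, while every 24 h library lay above every 4 h library. Its log2 change was -0.11 ± 0.04 at 4 h (edgeR adjusted p = 0.262, and 0.026 with the block) and 0.05 ± 0.04 at 24 h (edgeR adjusted p = 0.46). It rose by 0.16 ± 0.04 between 4 and 24 h (edgeR adjusted p = 0.0166), a call lost without A218 (0.0754), A220 (0.0666) or A223 (0.17). Ferritin pseudogenes found by symbol took 0.262 to 0.438% of the summed counts for Ftl1 and at most 0.023% for Fth1, and near-identical copies under other names could still share reads with them.

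Slc40a1 (chr1:45908068-45926523, minus strand), the iron exporter ferroportin, had 40.16, 40.32 and 62.94 CPM at 0 h, 39.58, 35.29 and 57.9 CPM at 4 h and 38.58, 41.07 and 66.48 CPM at 24 h in inducible lines. The 2 negative lines gave 45.26 and 40.01 CPM at 0 h, 37.42 and 36.2 CPM at 4 h and 42.79 and 43.99 CPM at 24 h. Line A225 stood above every other line at each time, and the other 4 lines overlapped. Its log2 change was -0.15 ± 0.18 at 4 h (edgeR adjusted p = 0.847) and 0.03 ± 0.18 at 24 h (edgeR adjusted p = 0.943). With the block the 4 h change was -0.15 ± 0.04 (edgeR adjusted p = 0.0489) and the change from 4 to 24 h 0.17 ± 0.04 (edgeR adjusted p = 0.00727, against 0.531 without the block).

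Between 4 and 24 h, 8 of the 10 genes passed, 7 higher and 1 lower, against 19.2% of features (11.2% higher and 7.99% lower). The ratio of Tfrc to Fth1 on the TPM scale had a median of 0.0558 at 0 h (0.0477 to 0.0646), 0.0622 at 4 h (0.0535 to 0.0777) and 0.0305 at 24 h (0.029 to 0.0437). The 24 h range lay below both others. The ratio of Ftl1 to Fth1 had medians of 4.85, 5.07 and 4.59 at 0, 4 and 24 h, and its ranges overlapped (4.17 to 5.37, 4.36 to 5.18 and 4.15 to 4.87).

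The responses of inducible and negative lines were compared through the difference of their changes, which asks whether a gene follows the induced alleles. None of the 10 genes passed at 4 h or at 24 h by edgeR without or with the block, limma-voom or DESeq2, against 0.0121% of features called at each time without the block. The share of features called was 0.0182% at 4 h and 0.0243% at 24 h with the block, 0.0121% at both by limma-voom, and 0.0304% and 0.0243% by DESeq2. At an unadjusted p under 0.05 there were 0 genes at either time without the block, and 1 at 4 h and 2 at 24 h with it. Without the block the differences, inducible minus negative, ran from -0.263 (Mt2) to 0.177 (Tfrc) at 4 h and from -0.16 (Ftl1) to 0.128 (Fth1) at 24 h on the log2 scale. For Mt1 at 24 h the difference was -0.01 ± 0.24 (95% interval -0.55 to 0.524), and for Slc30a1 0.06 ± 0.1 (-0.179 to 0.296). Tfrc gave 0.11 ± 0.23 (-0.408 to 0.62). The widest intervals, those of Mt2 (-0.853 to 0.733) and Slc40a1 (-0.825 to 0.827), leave room for a difference as large as many of the changes above. Among genes that passed at 24 h, the intervals of Tfrc, Slc39a10 (-0.363 to 0.454) and Mtf1 (-0.153 to 0.386) reached further from 0 than the change itself. Those changes were -0.541, 0.444 and 0.216. The intervals of Mt1, Mt2 and Slc30a1 did not reach as far as their changes.

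Ftl1 at 24 h came nearest to a difference. All 3 inducible lines (2962 to 3025 CPM) lay below both negative lines (3249 and 3439 CPM) at that time. Its difference of responses was -0.16 ± 0.08 (95% interval -0.342 to 0.021, edgeR adjusted p = 1), and -0.16 ± 0.06 with the block (edgeR adjusted p = 0.549, unadjusted p = 0.0138). The other gene under 0.05 unadjusted with the block at 24 h was Fth1, which went the other way (0.12 ± 0.06, edgeR adjusted p = 0.616), and at 4 h it was Mt2 (-0.271 ± 0.125, edgeR adjusted p = 0.991).

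**Figure D4:**
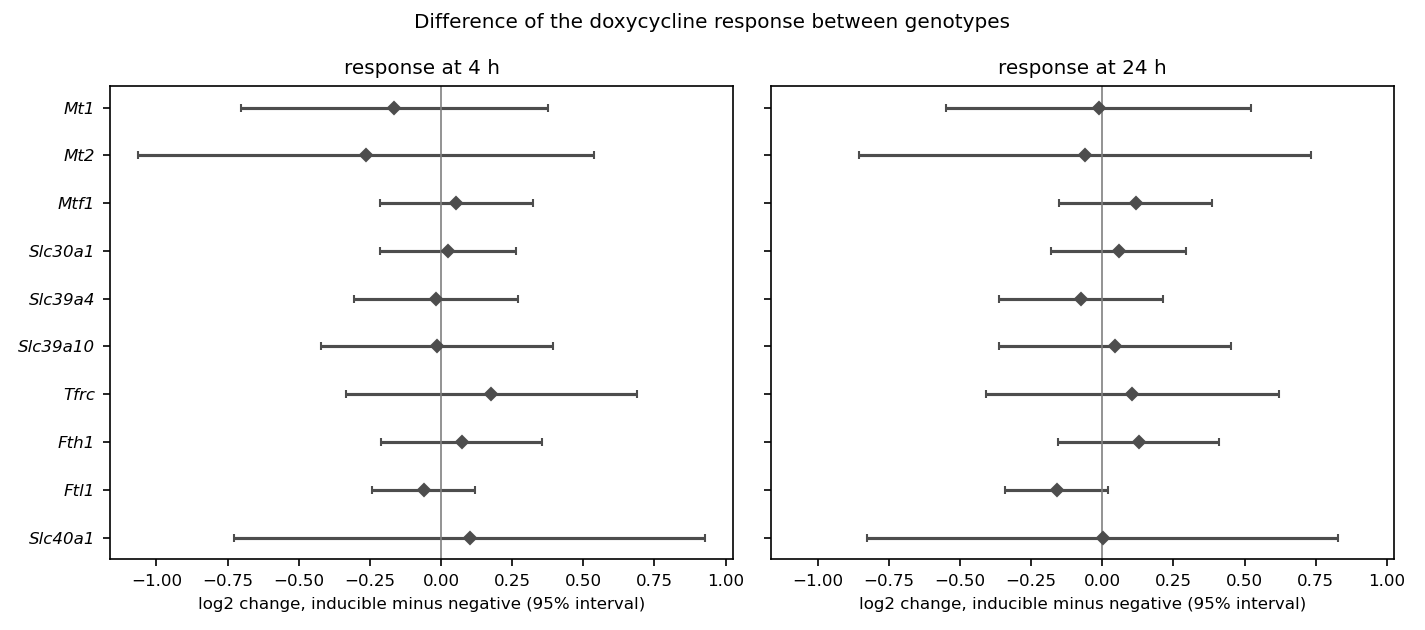
Difference of the log2 change between inducible and negative lines (inducible minus negative) at 4 h (left) and 24 h (right), with 95% intervals from the fit without the block. Every interval includes 0, and Ftl1 at 24 h, at -0.16, comes closest to leaving it out.

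Before doxycycline, none of the 10 genes passed between inducible and negative lines by edgeR, limma-voom or DESeq2, against 0% of features by edgeR and limma-voom and 0.0365% by DESeq2, and 1 had an unadjusted p under 0.05. It was Fth1, with 526, 529.3 and 494.7 CPM in inducible lines against 544.3 and 643.5 CPM in negative lines, which did not overlap (log2 -0.2 ± 0.09, 95% interval -0.4 to -0.002, edgeR adjusted p = 1). The differences of the 10 genes lay between -0.201 (Fth1) and 0.166 (Slc40a1). Genotype is confounded with line, since each line has 1 genotype.

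The genes were set beside each other over the 15 libraries after centring log2 CPM on the mean of each line. These are descriptions, since the points are 3 times of the same 5 lines. Mt1 and Mt2 had a Pearson correlation of 0.995, Mt2 and Slc30a1 0.99, and Mt2 and Tfrc -0.969. Fth1 went with Slc30a1 at 0.942, while Slc39a4 reached at most 0.767, with Ftl1. Many genes shared such profiles: of 11456 genes searched, 4.99% reached 0.9 or more with Mt2, 5.67% with Slc30a1 and 7.31% with Slc39a10, but 0.0786% with Slc39a4.

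The 3 genes most like each were H6pd (0.984), Lama4 (0.983) and Pard3 (0.98) for Mt1, and Camk2g (0.988), H6pd (0.987) and Pard3 (0.986) for Mt2. For Slc30a1 they were Arhgef26 (0.99), Ugdh (0.987) and Ppp2r2b (0.983), and for Mtf1 Miga1 (0.97), Sestd1 (0.961) and Tex2 (0.958). Slc39a10 was nearest to Kidins220 (0.985), Aldh6a1 (0.985) and Nub1 (0.984), and Slc39a4 to Gna11 (0.946), Arrdc1 (0.942) and Ube3b (0.937). Tfrc was nearest to Fut10 (0.986), Rttn (0.981) and Atp10a (0.979), Fth1 to Atp1b1 (0.979), Ptpn3 (0.976) and Cdh1 (0.976), Ftl1 to Pip5k1c (0.973), Rrp7a (0.968) and Sphk1 (0.963), and Slc40a1 to genes that included Phlpp1 (0.939) and Dgke (0.922). Mt1 and Mt2 thus shared H6pd and Pard3, and no other 2 of the 10 genes shared any.

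Wider lists of metal genes, which leave the 10 out, were read from the same fits. Of 11 zinc importers tested, 2 rose at 24 h and none fell, against 10.9 and 7.98% of features. That count is near the 18.8% of features called in either direction. They were Slc39a8, which carries zinc and manganese (34.4 ± 6.14 CPM at 24 h against 23.5 ± 4.23 CPM at 0 h, log2 0.545 ± 0.159, edgeR adjusted p = 0.0315), and Slc39a11 (92.2 ± 7.16 against 71.8 ± 5.45 CPM, log2 0.36 ± 0.06, edgeR adjusted p = 0.0021). With the block Slc39a1 was added (log2 0.15 ± 0.03), which made 3 of 11 higher, against 20.8% of features. None of 6 zinc exporters other than Slc30a1 passed at 24 h by edgeR, 2 had an unadjusted p under 0.05, and 0 passed by DESeq2 (26.7% of features) and 2 by limma-voom (34.1%). With the block 1 of 6 passed as higher, Slc30a4 (log2 0.145 ± 0.035), against 20.8% of features. The lists had median log2 changes of 0.066 for importers and 0.05 for exporters, beside 0.001 for all features.

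Of 24 genes of iron uptake, storage and export, 2 rose and 2 fell at 24 h, near the 10.9 and 7.98% of features, and with the block 6 rose and 4 fell, against 20.8 and 15.6% of features. Hmox1, which frees iron from heme, had 52.1 ± 12.2 CPM at 24 h against 32.7 ± 5.46 CPM at 0 h (log2 0.67 ± 0.17, edgeR adjusted p = 0.0191), and Hmox2 rose by 0.12 ± 0.03. Slc25a37, the mitochondrial iron importer mitoferrin, had 41.9 ± 2.8 CPM at 24 h against 52.5 ± 3.72 CPM at 0 h (log2 -0.325 ± 0.058, edgeR adjusted p = 0.00287), and Flvcr1, described as a heme exporter, fell by 0.23 ± 0.05. With the block alone, Lcn2 (0.665), Cp (0.33), Steap1 (0.27) and Steap2 (0.2) were higher and Bmp6 (-0.61) and Slc25a28 (-0.13) lower on the log2 scale, where Bmp6 and Lcn2 lay under 10 CPM in every library at 24 h. Lcn2 was lower at 24 h (8.539 CPM) than at 0 h (9.576 CPM) in line A217, which had the most of it. It was higher in A218, A220, A223 and A225. Of 3 iron regulatory proteins, 2 passed as higher at 24 h with the block, against 20.8% of features, Aco1 (0.12 ± 0.03) and Ireb2 (0.18 ± 0.06). By edgeR without the block 0 of 3 passed, against 18.8% of features, and 1 had an unadjusted p under 0.05. By DESeq2 0 passed, against 26.7% of features, and by limma-voom 1 passed, against 34.1%.

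Of 12 copper genes, 3 rose at 24 h and none fell, against 10.9 and 7.98% of features: Atp7a, a copper pump (36.2 ± 3 CPM at 24 h against 28.4 ± 1.4 CPM at 0 h, log2 0.35 ± 0.06, edgeR adjusted p = 0.00283), the copper transporter Slc31a2 (log2 0.34 ± 0.08) and the copper chaperone Atox1 (log2 0.24 ± 0.05). With the block Ccs (0.18), Cox17 (0.18) and Sod1 (0.08) were added, so that 6 of 12 were higher, against 20.8% of features. Of 10 genes of iron-sulfur cluster assembly, Lyrm4, a subunit of the cysteine desulfurase complex, rose (log2 0.28 ± 0.06, edgeR adjusted p = 0.00582), and of 10 magnesium transport genes, Cnnm2 rose (log2 0.34 ± 0.09, edgeR adjusted p = 0.0222). Without the block, 1 in 10 is near the 10.9% of features that were higher. With the block 2 of 10 iron-sulfur genes were higher, against 20.8%, the added one being Isca2, an assembly factor (22.5 ± 0.683 CPM at 24 h against 20.1 ± 2 CPM at 0 h, log2 0.168 ± 0.047, edgeR adjusted p = 0.0125). In the magnesium list Cnnm3 was then lower (18.7 ± 1.96 CPM at 24 h against 21.9 ± 1.04 CPM at 0 h, log2 -0.229 ± 0.05, edgeR adjusted p = 0.00283), which makes 1 of 10 in each direction, against 20.8 and 15.6%.

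At 4 h none of the genes of these lists passed by edgeR without the block, while 1 iron, 3 copper, 1 exporter, 1 importer, 1 iron-sulfur and 2 magnesium genes had an unadjusted p under 0.05. By DESeq2 1 of 24 iron, 1 of 12 copper and 1 of 10 magnesium genes passed, against 4.45% of features. By limma-voom 1 gene each of the iron, exporter, iron-sulfur and magnesium lists and 2 copper genes passed, against 6.7% of features. With the block, 3 of 24 iron genes were lower and none higher, against 4.96% of features lower and 3.91% higher. They were Slc25a28 (log2 -0.321 ± 0.047), Bmp6 (-0.56) and Pcbp1 (-0.13). Of the 12 copper genes 2 were higher and 1 was lower with the block. Slc31a2 had 14.2 ± 1.35 CPM at 4 h against 11.3 ± 0.64 CPM at 0 h (log2 0.32 ± 0.06, edgeR adjusted p = 0.00482) and Atp7a 31.8 ± 1.58 CPM against 28.4 ± 1.4 CPM (log2 0.16 ± 0.05, edgeR adjusted p = 0.0419). Sco2, a copper chaperone of cytochrome c oxidase, was lower (log2 -0.385 ± 0.097, edgeR adjusted p = 0.0258), at under 10 CPM in every library at 4 h. Single genes were higher with the block in 3 other lists, Slc30a9 of 6 zinc exporters (log2 0.127 ± 0.03), Isca2 of 10 iron-sulfur genes (0.171 ± 0.047) and the magnesium transporter Slc41a1 of 10 (0.22 ± 0.034). None of the 11 zinc importers or 3 iron regulatory proteins passed at 4 h with it, and 2 importers had an unadjusted p under 0.05.

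**Figure D5:**
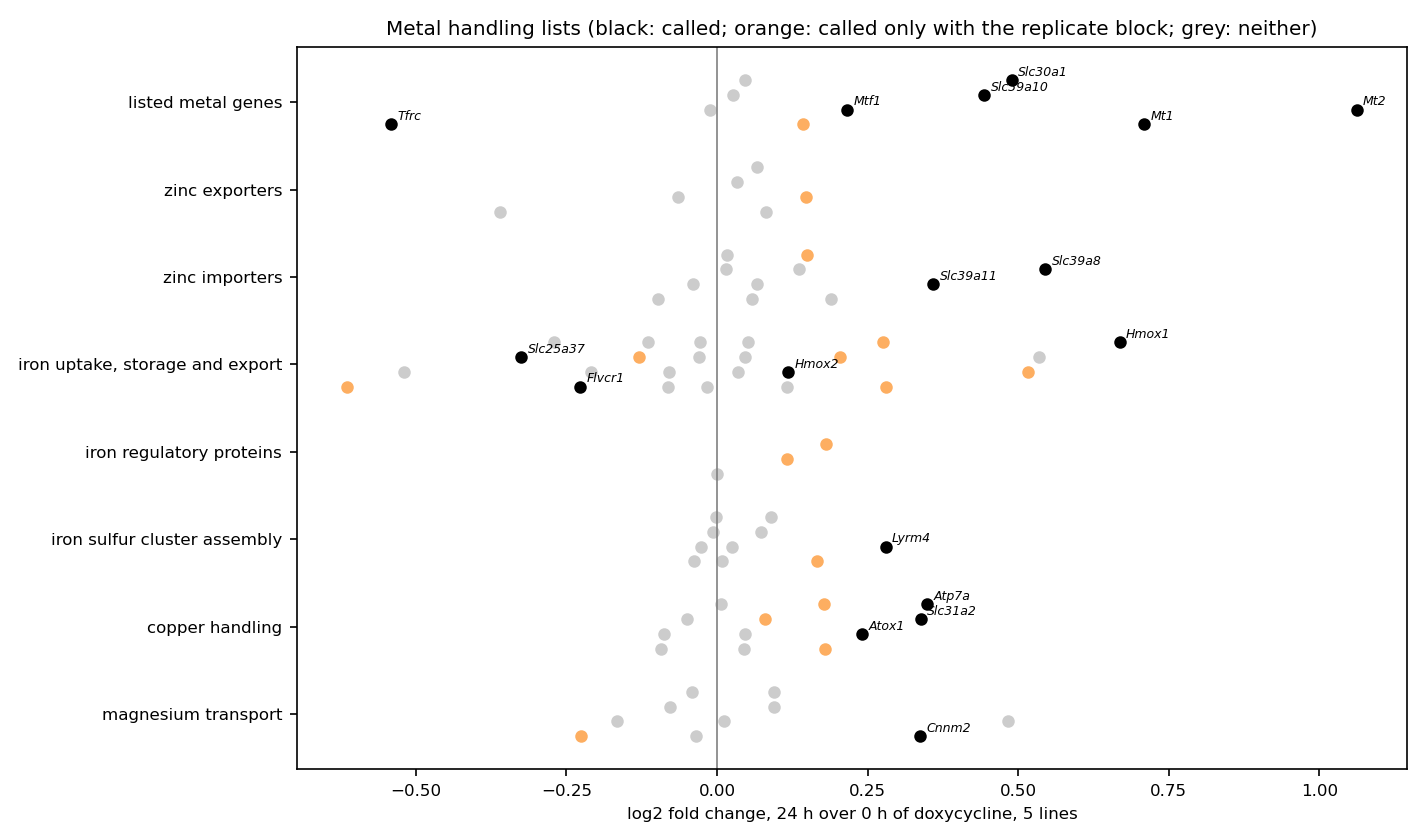
Log2 change at 24 h over 0 h of doxycycline for each tested gene of the 10 described here (top row) and of 7 wider lists, over 5 lines; black passed the test, orange passed with the replicate block only, grey passed neither. Mt2 at 1.06 and Tfrc at -0.54 mark the ends of the top row, and most genes of the other lists lie near 0.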

How the data were processed

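For each library the authors deposited estimated counts per transcript from kallisto, without normalisation, and TPM values, per the file headers; kallisto 0.43.1, GRCm38 and DESeq2 1.18.1 are named in the submitters' processing notes. Libraries were made from total RNA depleted of ribosomal RNA, per the labels' protocols. No source states whether counting used strand, so a gene and an antisense partner could share reads. Deposited length and effective length columns (another unit, in bases) were not used.

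Estimated counts were summed per gene by GENCODE M21, matched without transcript version, and rounded; 1295 of 109304 transcripts matched no gene and held 0.556 to 0.593% of a library. Filtering left 16462 features, and TMM factors ran from 0.966 to 1.023. CPM values are scaled by TMM and compare 1 gene between libraries; deposited TPM values, summed per gene, compare genes. The main test was edgeR 4.0.16 (R 4.3.3) with 6 group means over all 15 libraries, no block, and time effects averaged over the 5 lines. The biological coefficient of variation came to 0.157 (9 residual degrees of freedom), and 95% intervals use the SE derived from the F test and those degrees of freedom.

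Lines pair the libraries, since the same line was sampled at each time, per the titles; deviations from group means correlated at 0.381 to 0.476 within inducible lines and 0.238 to 0.285 within negative lines, where deviations in groups of 2 mirror each other. With the line as a replicate block the coefficient was 0.058 with 6 degrees of freedom. Alternatives were that block, limma-voom (limma 3.58.1) with a random block (correlation 0.417), DESeq2 1.42.0, median-of-ratios scaling, no filter, added pseudogene counts and leaving out each line. Same-group libraries differed far beyond counting error (chi-square over degrees of freedom 14.8 to 43.2), so none is a copy of another in its group. Only libraries of the same group were compared in this way. Scripts were tested on simulated data. Promoters came from RefSeq, transcripts from GENCODE M21.

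All 10 genes are named. From wider lists the text names up to 4 called genes per direction, first without and then with the block, and the 3 genes most like each of the 10 by correlation, among genes of at least 1 CPM that are neither predicted genes nor pseudogenes; 1 of those for Slc40a1 is not reported here. The genes and lists were chosen with earlier results of these data known.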

Additional observations from a re-analysis of the deposited data

How the results depend on the processing

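Of the 15 changes called without the block, 9 kept their call under every alternative and none changed direction; of the 45 values not called, 19 changed sign under some alternative, each of them smaller than its SE in the fit without the block. The count of genes called at 4 h was the least stable. It was 1 without a block, 6 with a replicate block for the line, 4 with limma-voom, 3 with DESeq2, 0 without the expression filter and 0 whenever 1 of the 5 lines was left out. Slc30a1 at 4 h had an edgeR adjusted p of 0.0669 without the filter. Leaving out a line gave 4 to 6 genes at 24 h against 0 h and 6 to 8 against 4 h, and Mtf1 between 4 and 24 h lost its call without A218 (edgeR adjusted p = 0.0548), A220 (0.0708), A223 (0.0753) or A225 (0.0555). Leaving out a negative line leaves 1 library per time in that genotype, which is then assumed to vary like the other groups.

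Signs changed as follows, on the log2 scale. The difference of the 24 h response of Slc40a1 (0.001) was -0.009 with the replicate block and -0.016 with limma-voom. The 0 h difference of Ftl1 (0.002) was -0.007 with DESeq2, -0.007 with median-of-ratios scaling and -0.002 without the filter. With 1 line left out, the 4 h change of Mtf1 ran from -0.063 to 0.005, the 24 h change of Slc39a4 from -0.041 to 0.003 and that of Slc40a1 from -0.007 to 0.046. Differences of the 4 h response ran from -0.055 to 0.183 for Mtf1, -0.013 to 0.07 for Slc30a1, -0.121 to 0.12 for Slc39a4, -0.06 to 0.06 for Slc39a10 and -0.105 to 0.005 for Ftl1. Those of the 24 h response ran from -0.042 to 0.023 for Mt1, -0.169 to 0.058 for Mt2, -0.056 to 0.169 for Slc39a10 and -0.107 to 0.104 for Slc40a1. Differences at 0 h ran from -0.176 to 0.069 for Mt1, -0.25 to 0.077 for Mt2, -0.108 to 0.021 for Mtf1, 0 to 0.119 for Slc39a4, -0.142 to 0.023 for Slc39a10, -0.036 to 0.023 for Ftl1 and -0.094 to 0.269 for Slc40a1. The cause was not tested. For the 10 genes the replicate block changed no call beyond those given with the results above, and could not be fitted at 0 h, where each line has 1 library. With 3 inducible and 2 negative lines, differences between genotypes have wide intervals.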
